A study of Mus musculus with 15 samples.

Results

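The mitochondrial carriers of the Slc25 family were followed in left ventricular RNA of male C57BL/6NRj mice. Members were all genes of the expression tables whose symbol starts with Slc25a followed by a digit, 41 of 15258 genes listed. Of these, 37 passed the filter for expressed genes, which kept 11018 genes in all and asked for at least 2.95 reads per M in 5 libraries and 15 reads in total. The mice were operated on with either a sham procedure or transverse aortic constriction (TAC), which narrows the aorta and loads the left ventricle with pressure, and wore minipumps that delivered saline or NRG (neuregulin-1β, a ligand of ERBB receptors). The 3 groups compared are named sham saline, TAC saline and TAC NRG, with 5 libraries each. The labels give neither the age of the mice nor the dose or duration of the infusion, and no sham group received NRG, so NRG was measured only under constriction. Whether the 5 libraries of a group stem from 5 mice is not said in the labels, and p-values therefore cover the spread among these libraries, which may in part be technical.

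Slc25 proteins sit mostly in the inner mitochondrial membrane and exchange small molecules between the cytosol and the matrix. Cardiac mitochondria depend on them to send ATP out, to bring ADP, phosphate and acylcarnitines in, to move reducing equivalents by the malate–aspartate shuttle, and to supply the matrix with cofactors, amino acids and iron. The members are described below by the substrate each is known for.

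Libraries were made by BRB-seq, a multiplexed assay of transcript 3′ ends with a barcode per RNA sample, and held 2.02 to 5.62 M reads. Levels are given in CPM (counts per M reads) on the authors' scaling, and differences as log2 values ± standard error (SE). On the second principal component (14.5% of variance) TAC NRG 4 (24.8) and TAC NRG 5 (27.3) stood apart from the remaining 13, which ranged from -15.3 to 3.14. These were also the shallowest libraries. Mitochondrially encoded genes took 30.5% to 31.8% of reads in sham saline, 26.0% to 29.6% in TAC saline and 23.7% to 29.0% in TAC NRG. All 8 cardiomyocyte markers were detected, with summed levels of 62560 to 68130, 57440 to 68640 and 58200 to 70230 CPM in the same order. Its members moved both ways: from sham saline to TAC saline, Tnni3 (11120 to 11710 against 6982 to 10480 CPM) and Pln (5056 to 5459 against 3370 to 4739) were lower and Actc1 (12140 to 16690 against 18930 to 20600) was higher without overlap. The 8 fibroblast markers summed to 983 to 1114, 1386 to 2633 and 1813 to 3347 CPM, and the 6 macrophage markers to 405 to 675, 456 to 860 and 393 to 705 CPM. Of the fibroblast list, Col1a1, Col1a2, Col3a1, Lum, Tcf21 and Postn were higher in TAC saline than in sham saline without overlap. Postn was at 24.7 to 50.5 CPM in sham saline and 94.7 to 425 CPM in TAC saline. Dcn (631 to 677.5 against 676.9 to 887 CPM) and Pdgfra (11.47 to 21.85 against 14.6 to 22.12 CPM) overlapped between these groups. The 6 endothelial markers summed to 511 to 564, 542 to 626 and 449.5 to 536 CPM in sham saline, TAC saline and TAC NRG. Every TAC NRG library thus lay below every TAC saline library. Of these markers Cdh5 alone separated the TAC groups, at 130.7 to 185.8 CPM in TAC saline and 108.6 to 126.6 CPM in TAC NRG. The others overlapped, with lower medians in TAC NRG for Pecam1, Kdr, Tie1 and Egfl7 and a higher one for Flt1 (80.0 against 72.9 CPM). Of the atrial markers Myl7 and Myl4 were listed, at 2.02 to 5.69 CPM together in any library, and Adipoq and Cidec of the adipocyte markers had 0 to 4 reads in each library, whereas Cidea of the same list was at 31.4 to 34.0, 35.6 to 41.2 and 42.4 to 66.6 CPM, with no overlap between the groups.

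Reads of the family were concentrated in a pair of genes. Slc25a4, which encodes the ADP/ATP carrier ANT1, took 53.0% to 59.0% of all Slc25a reads of a library, and Slc25a3, the phosphate carrier, 24.2% to 27.9%, so that the other 39 members shared what remained. The whole family took 1.51% ± 0.041 of reads in sham saline, 1.42% ± 0.087 in TAC saline and 1.45% ± 0.095 in TAC NRG (SD, n = 5 each). With mitochondrially encoded reads left out of the total, its shares were 2.19% ± 0.054, 1.96% ± 0.15 and 1.96% ± 0.16. Without Slc25a4 and Slc25a3 the shares of all reads were 0.262% ± 0.0055, 0.256% ± 0.0034 and 0.266% ± 0.0066. The median over the tested members was 40 to 125 reads in a library, and the part of depth in the calls was not tested.

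The filter left 4 of the 41 members untested. Slc25a14, an uncoupling-like carrier, had 28 reads over the 5 sham saline libraries, 28 in TAC saline and 35 in TAC NRG. Slc25a18, a glutamate carrier, had 3, 4 and 2 reads, and Slc25a31, the ADP/ATP carrier ANT4 known from germ cells, had 8, 7 and 13. Slc25a53, whose substrate is not settled, had 8, 23 and 25 reads in the same order.

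After constriction alone, more members fell than rose on the authors' scaling, but fewer fell than rose when scaled by total reads alone. Between TAC saline and sham saline, 2 of the 37 tested members rose, Slc25a10 and Slc25a24, and 6 fell, Slc25a11, Slc25a13, Slc25a28, Slc25a34, Slc25a42 and Slc25a46 (limma, adjusted over all genes tested). That is 5.41% higher and 16.2% lower, where 6.47% of all tested genes were higher and 4.24% were lower. At an unadjusted p under 0.05 there were 16 members (43.2%, against 24.2% of all genes). Values did not overlap between the groups for 2 members that were higher, Slc25a10 and Slc25a24, and 1 that was lower, Slc25a42, against 4.72% and 3.68% of all genes. The median log2 difference of the members was -0.12, and -0.00515 over all genes. When scaled by total reads alone, 3 members were higher (Slc25a10, Slc25a23 and Slc25a24) and 1 lower (Slc25a42), the members' median was -0.011 and that of all genes 0.105, while genes called over the whole table went from 713 higher and 467 lower to 1078 higher and 191 lower. The 8 calls became 2 (Slc25a24 and Slc25a42) without TAC saline 1 or without TAC saline 5, 3 without sham saline 2 or 3, 2 without sham saline 4, where Slc25a23 passed in addition, and 5 without sham saline 1, sham saline 5 or TAC saline 4. In bulk tissue, fewer cells of a type and less RNA per cell cannot be told apart, and the part that the fibroblast markers and the mitochondrial share play in these differences was not tested.

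No member passed the threshold between the TAC groups. Between TAC NRG and TAC saline, 0 of 37 members were called by limma, 0 with voom weights and 0 under every alternative tried, and 5 had an unadjusted p under 0.05 (Slc25a13, Slc25a26, Slc25a37, Slc25a39 and Slc25a47), which is 13.5% of the members, below the 15.3% of all genes. Calls were rare over all genes too, 0.672% higher and 0.626% lower. Values did not overlap for Slc25a39, which was higher, and Slc25a26, which was lower, where 1.81% of all genes were higher and 1.25% lower without overlap. The members' median was 0.043, against -0.0059 for all genes.

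Set against sham saline, TAC NRG had 2 members higher, Slc25a1 and Slc25a10, and 3 lower, Slc25a26, Slc25a38 and Slc25a42. The shares were 5.41% and 8.11%, beside 8.74% and 7.39% of all genes, so neither count stood far from the background. At an unadjusted p under 0.05 there were 11 members (29.7%, against 28.9% of all genes). No member was higher without overlap (6.23% of all genes were), and 4 were lower without overlap, Slc25a11, Slc25a26, Slc25a42 and Slc25a12, the last named after its values were seen (5.45% of all genes were). The members' median was -0.11, against -0.012 for all genes, and when scaled by total reads alone -0.016 against 0.081. With that scaling the whole table had 1364 genes higher and 434 lower, in place of 963 and 814. Leaving out TAC NRG 4 and 5, which stood apart, left 1 member past the threshold, Slc25a46. The count was 1 without sham saline 4 or TAC NRG 4 (Slc25a26), 2 without sham saline 5 or TAC NRG 1, and 3 without TAC NRG 3. This comparison shares its sham saline libraries with the first and its TAC NRG libraries with the second, so the 3 are not independent.

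**Figure D1:**
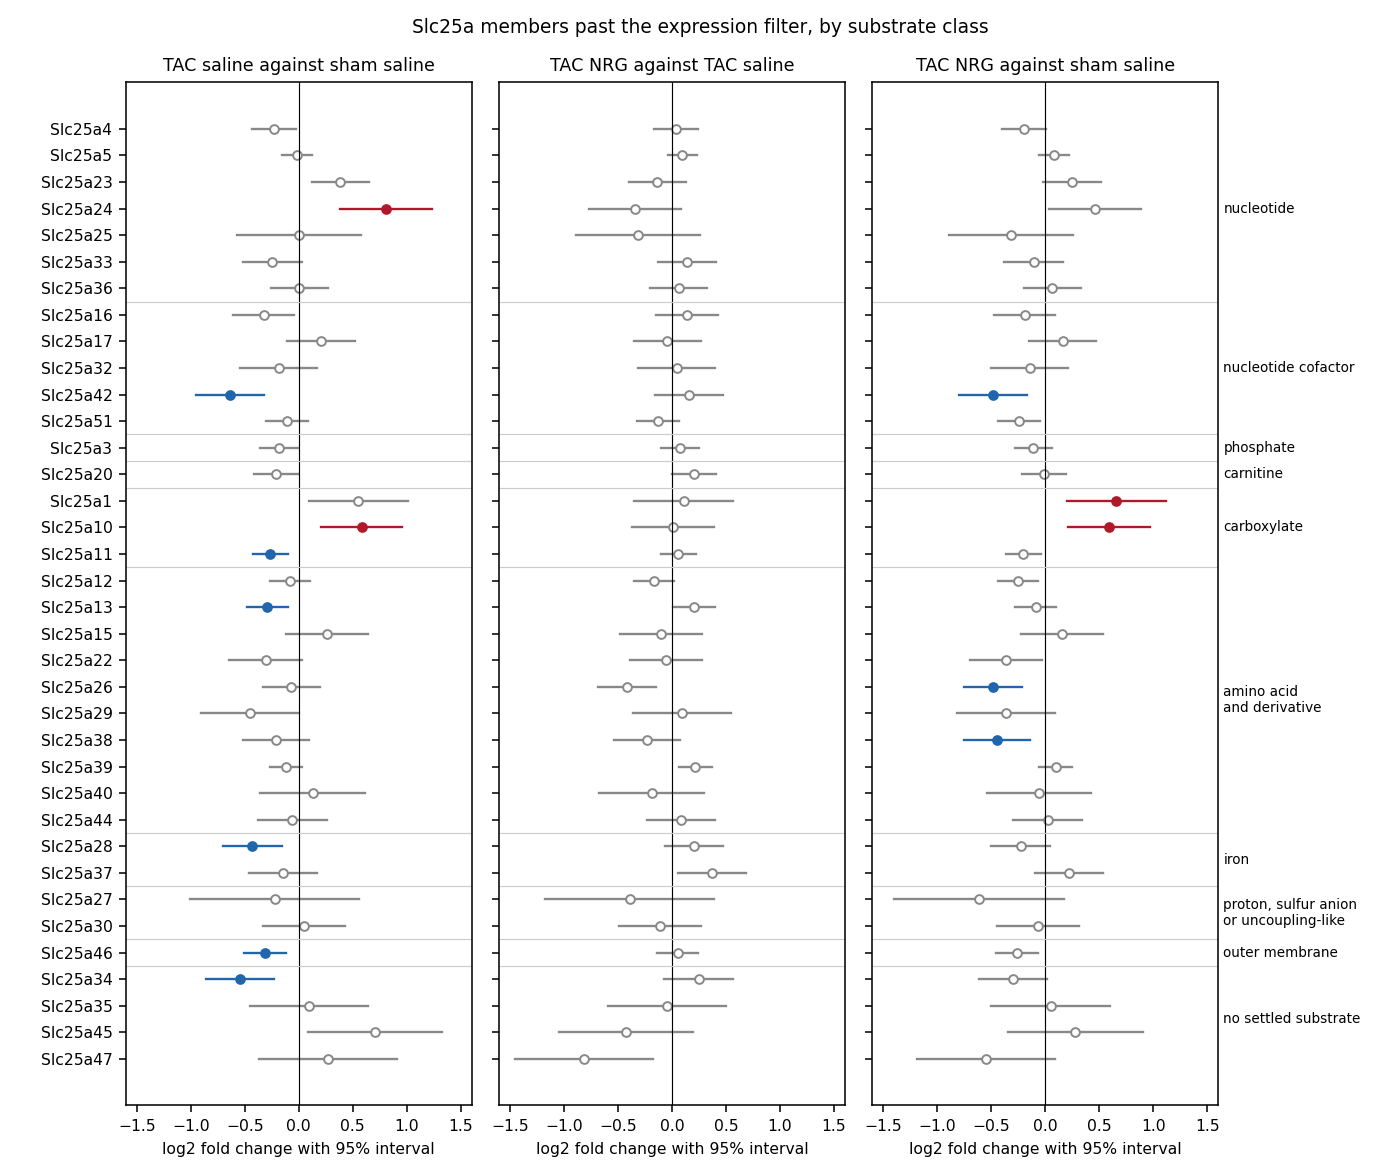
Log2 fold change (x axis) of 36 of the 37 tested Slc25a members (rows, grouped by substrate) in the 3 comparisons; points are limma estimates, bars 95% intervals, red filled points rose and blue filled points fell at an adjusted p under 0.05. Of the members, 8 are filled in the first panel, 0 in the second and 5 in the third.

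Among the nucleotide carriers, Slc25a24 rose with constriction and the abundant ADP/ATP carriers did not pass the test. Of 7 tested members of this class, 1 rose and none fell between TAC saline and sham saline. That is 14.3% and 0%, beside 6.47% of all genes higher and 4.24% lower. Slc25a24 encodes a calcium-regulated carrier that exchanges ATP-Mg for phosphate and so adjusts the adenine nucleotide pool of the matrix. Its level was 4.11, 5.67, 5.26, 4.73 and 4.94 CPM in sham saline 1 to 5, 8.82, 8.87, 6.75, 8.78 and 10.2 CPM in TAC saline 1 to 5 and 6.22, 5.48, 10.6, 7.20 and 5.53 CPM in TAC NRG 1 to 5. Every TAC saline library lay above every sham saline library, while 3 of the TAC NRG libraries lay within or just above the sham range and TAC NRG 3 reached the highest value of all. The rise in TAC saline was 0.81 ± 0.21, or 1.75-fold (limma adjusted p = 0.0122), on 15 to 21 reads a library in sham saline and 19 to 42 in TAC saline. TAC NRG did not pass against either group, with -0.35 ± 0.21 from TAC saline (adjusted p = 0.439, 95% interval -0.77 to 0.079) and 0.46 ± 0.21 from sham saline (adjusted p = 0.132). Its promoter is shown because its groups did not overlap after constriction. It is the window from 250 bases before to 50 after the annotated start, from RefSeq on GRCm38.p6, plus strand, chr3:109122899-109123198, 5′ to 3′, with GC boxes (GGGCGG on either strand) in capitals:
Slc25a24: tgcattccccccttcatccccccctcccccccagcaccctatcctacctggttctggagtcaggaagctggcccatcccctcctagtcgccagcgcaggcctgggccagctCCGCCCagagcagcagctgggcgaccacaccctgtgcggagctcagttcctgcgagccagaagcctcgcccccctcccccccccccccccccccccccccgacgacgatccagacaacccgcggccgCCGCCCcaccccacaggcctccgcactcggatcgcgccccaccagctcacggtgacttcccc

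Slc25a4, the ADP/ATP carrier of heart and muscle, stood at 8494, 8205, 9166, 8301 and 8338 CPM in sham saline, 7334, 7370.0, 8668, 6447 and 6576 CPM in TAC saline and 7047, 8643, 6138, 7672 and 7833 CPM in TAC NRG, each in library order 1 to 5. TAC saline 3 and TAC NRG 2 reached into the sham range and the other 8 TAC libraries lay below it. The difference of TAC saline from sham saline was -0.23 ± 0.10 and did not pass (limma adjusted p = 0.148), nor did that of TAC NRG, at -0.20 ± 0.10 (adjusted p = 0.197). For its paralog Slc25a5 (ANT2), group means were 762 ± 33.6, 756 ± 47.5 and 808 ± 33.1 CPM in sham saline, TAC saline and TAC NRG (SD, n = 5 each), with an interval of -0.15 to 0.13 for the log2 difference of TAC saline from sham saline. Its 3′ end is 95% identical to that of the pseudogene Slc25a5-ps in the reference, so its reads are uncertain.

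The other nucleotide carriers did not pass in any comparison. Slc25a23, a further ATP-Mg/phosphate carrier, had group means of 26.8 ± 5.38, 34.6 ± 3.68 and 31.5 ± 4.18 CPM (SD, n = 5 each) and a difference of 0.38 ± 0.13 between TAC saline and sham saline (limma adjusted p = 0.0543), just outside the threshold. The third calcium-regulated paralog, Slc25a25, had means of 6.69 ± 3.13, 6.31 ± 1.62 and 5.13 ± 1.44 CPM. The pyrimidine nucleotide carriers were at 48.4 ± 5.44, 41.1 ± 6.97 and 45.5 ± 9.06 CPM for Slc25a33 and 30.0 ± 3.82, 30.2 ± 5.34 and 31.2 ± 3.26 CPM for Slc25a36, in the order sham saline, TAC saline, TAC NRG.

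Among the carriers of nucleotide-based cofactors, Slc25a42 fell in both TAC groups. Of 6 tested members, 1 fell (16.7%) and none rose in TAC saline and in TAC NRG against sham saline. Of all genes, 4.24% fell and 6.47% rose in TAC saline, and 7.39% fell and 8.74% rose in TAC NRG. In each comparison 5 of 6 estimates of the class were negative (83.3%, against 50.9% and 52.0% of all genes). Slc25a42 transports coenzyme A, the acyl carrier of fat oxidation and the citric acid cycle, into the matrix. Its level was 29.7, 34.2, 34.0, 33.4 and 30.4 CPM in sham saline 1 to 5, 14.3, 27.4, 25.1, 25.3 and 15.3 CPM in TAC saline 1 to 5 and 22.5, 25.5, 24.1, 22.5 and 21.0 CPM in TAC NRG 1 to 5. No library of either TAC group reached the lowest sham saline library, and TAC saline 1 and 5 lay far below the other 3 of their group. The fall was 0.64 ± 0.15 on the log2 scale in TAC saline (limma adjusted p = 0.00779) and 0.48 ± 0.15 in TAC NRG (adjusted p = 0.0316). Against TAC saline, TAC NRG differed by 0.16 ± 0.15 (adjusted p = 0.674, 95% interval -0.16 to 0.47). The fall in TAC NRG lost its call with 1 library left out, at an adjusted p of 0.0654, 0.0672 and 0.0611 without sham saline 2, 3 or 4 and 0.0557, 0.0573 and 0.0637 without TAC NRG 1, 4 or 5, at 0.12 without TAC NRG 4 and 5 together, and at 0.0699 when scaled by total reads alone. Its promoter, shown for the same reason as that of Slc25a24, lies on the minus strand at chr8:70212232-70212531 (GRCm38.p6) and holds 1 GC box, in capitals:
Slc25a42: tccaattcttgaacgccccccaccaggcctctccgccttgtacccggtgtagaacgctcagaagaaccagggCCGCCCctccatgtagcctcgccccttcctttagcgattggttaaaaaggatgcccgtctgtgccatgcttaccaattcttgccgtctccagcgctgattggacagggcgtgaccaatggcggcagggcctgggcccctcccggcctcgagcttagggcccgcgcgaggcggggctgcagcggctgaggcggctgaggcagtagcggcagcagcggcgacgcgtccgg

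Slc25a51, the NAD carrier of the matrix, had the most reads of the cofactor carriers. It stood at 62.6, 53.9, 67.2, 64.8 and 58.8 CPM in sham saline, 47.9, 59.1, 60.8, 62.9 and 54.0 CPM in TAC saline and 56.5, 52.8, 47.5, 48.5 and 53.7 CPM in TAC NRG, in library order. The TAC groups overlapped sham saline, although 4 of 5 TAC NRG libraries lay below every sham library, and the difference of TAC NRG from sham saline was -0.25 ± 0.094 (limma adjusted p = 0.0782). A stretch of its 3′ end is 95.2% identical over 104 bases to Itgad, so its reads are uncertain. Slc25a16, Slc25a32 and Slc25a17 did not pass in any comparison. Slc25a16, linked to coenzyme A supply, had means of 32.3 ± 5.93, 25.6 ± 4.06 and 28.2 ± 4.32 CPM (SD, n = 5 each) in sham saline, TAC saline and TAC NRG, with -0.33 ± 0.14 for TAC saline (adjusted p = 0.139). Slc25a32, the folate and FAD carrier, had 14.7 ± 2.71, 13.1 ± 3.47 and 13.2 ± 1.24 CPM, and Slc25a17, a peroxisomal cofactor carrier, 16.4 ± 2.44, 18.8 ± 2.20 and 18.5 ± 4.11 CPM.

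The phosphate and carnitine carriers did not pass the test. Slc25a3 supplies the phosphate for ATP synthesis and also carries copper. Its level was 3961, 3845, 3763, 3859 and 4208 CPM in sham saline, 3347, 3302, 4183, 3313 and 3238 CPM in TAC saline and 3667, 3857, 3183, 3712 and 3816 CPM in TAC NRG. All TAC saline libraries but library 3 lay below the sham range, and so did TAC NRG 1, 3 and 4. The differences from sham saline were -0.18 ± 0.084 in TAC saline (limma adjusted p = 0.181) and -0.11 ± 0.084 in TAC NRG (adjusted p = 0.424). Slc25a20, which takes acylcarnitines into the matrix for fat oxidation, stood at 168, 173, 149.8, 152 and 169.5 CPM in sham saline, 136, 157, 159.5, 128 and 123 CPM in TAC saline and 153, 167, 128, 165 and 199.6 CPM in TAC NRG. TAC saline 1, 4 and 5 were lower than any sham library, and TAC NRG 5 was the highest of all 15. TAC saline differed from sham saline by -0.21 ± 0.10 (adjusted p = 0.186) and TAC NRG from TAC saline by 0.20 ± 0.10 (adjusted p = 0.330).

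Carboxylate carriers were called in both directions: against sham saline, Slc25a10 rose in both TAC groups, Slc25a1 rose in TAC NRG and Slc25a11 fell in TAC saline. Each of the 3 had an unadjusted p under 0.05 in TAC saline against sham saline, where 1 rose and 1 fell. Of all genes, 24.2% had such a p, 6.47% rose and 4.24% fell in that comparison. In TAC NRG against sham saline, 8.74% of all genes rose and 7.39% fell. Slc25a10 exchanges malate and succinate for phosphate. Its level was 10.1, 8.84, 9.41, 6.25 and 7.63 CPM in sham saline 1 to 5, 11.4, 13.1, 12.3, 12.2 and 13.3 CPM in TAC saline 1 to 5 and 10.9, 11.9, 8.53, 16.5 and 17.0 CPM in TAC NRG 1 to 5. All TAC saline libraries lay above all sham libraries, whereas TAC NRG 3 lay inside the sham range and TAC NRG 4 and 5, the libraries that stood apart, were the highest of all. The rise was 0.58 ± 0.18 in TAC saline (limma adjusted p = 0.0425) and 0.59 ± 0.18 in TAC NRG (adjusted p = 0.0296), and between the TAC groups the 95% interval was -0.37 to 0.39. The TAC saline call was lost in 10 of 15 fits that left out 1 library, at an adjusted p of 0.0502 without TAC NRG 2, 0.0606, 0.0525, 0.115 and 0.0879 without sham saline 2, 3, 4 or 5, and 0.0655, 0.0739, 0.0515, 0.0715 and 0.105 without TAC saline 1, 2, 3, 4 or 5. The TAC NRG call was lost (adjusted p in brackets) without sham saline 4 (0.0842) or 5 (0.0626) and without TAC NRG 4 (0.0898) or 5 (0.0860), and without TAC NRG 4 and 5 together the difference was 0.31 (adjusted p = 0.309).

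Slc25a1 exports citrate, a source of cytosolic acetyl-CoA. It stood at 6.78, 6.73, 3.35, 5.34 and 4.94 CPM in sham saline, 6.80, 7.12, 10.6, 8.04 and 6.61 CPM in TAC saline and 8.98, 6.00, 11.1, 9.06 and 7.29 CPM in TAC NRG, on 10 to 43 reads a library. Sham saline 3 was the lowest library and TAC NRG 3 the highest, and both TAC groups overlapped sham saline. The rise in TAC NRG was 0.66 ± 0.22 (limma adjusted p = 0.0447), and the difference in TAC saline, 0.55 ± 0.22, did not pass (adjusted p = 0.119). The call was lost (adjusted p in brackets) without sham saline 3 (0.138), 4 (0.0678) or 5 (0.0824), TAC NRG 1 (0.0834), 3 (0.125) or 4 (0.0875), and TAC saline 2 (0.0514) or 4 (0.0523). It was also lost with voom weights (adjusted p = 0.0942) and without TAC NRG 4 and 5 together (0.0948). The promoters of both genes that rose are shown together, Slc25a10 from the plus strand at chr11:120491587-120491886 and Slc25a1 from the minus strand at chr16:17928170-17928469 (GRCm38.p6). Capitals mark GC boxes and, in Slc25a1 239 bases before the start, the E-box CACGTG:
Slc25a10: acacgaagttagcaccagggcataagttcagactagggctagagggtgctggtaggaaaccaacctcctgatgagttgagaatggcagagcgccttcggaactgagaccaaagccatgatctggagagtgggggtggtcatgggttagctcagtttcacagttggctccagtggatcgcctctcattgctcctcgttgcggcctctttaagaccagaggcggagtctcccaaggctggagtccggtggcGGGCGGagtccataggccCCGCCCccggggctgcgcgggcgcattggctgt
Slc25a1: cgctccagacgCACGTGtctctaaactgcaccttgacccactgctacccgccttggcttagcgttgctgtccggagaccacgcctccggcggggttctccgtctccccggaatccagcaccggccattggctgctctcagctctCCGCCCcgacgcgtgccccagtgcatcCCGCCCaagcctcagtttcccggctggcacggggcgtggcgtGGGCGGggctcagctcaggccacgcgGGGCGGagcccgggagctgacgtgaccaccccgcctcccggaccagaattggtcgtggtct

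Slc25a11 exchanges oxoglutarate for malate in the malate–aspartate shuttle. Its level was 653, 623, 682, 643 and 614 CPM in sham saline, 540.0, 559, 621, 499 and 470.3 CPM in TAC saline and 558, 614, 481, 567 and 577 CPM in TAC NRG, in library order. TAC saline 3 alone of the TAC saline libraries reached the sham range, and every TAC NRG library lay below it, TAC NRG 2 by less than 1 CPM. It fell by 0.26 ± 0.079 on the log2 scale in TAC saline (limma adjusted p = 0.0337), and TAC NRG differed by -0.20 ± 0.079 from sham saline (adjusted p = 0.0804). Slc25a11 lost the call (adjusted p in brackets) without sham saline 1 (0.0681), 2 (0.0505), 3 (0.0816) or 4 (0.0592) and TAC saline 1 (0.0658), 4 (0.0870) or 5 (0.117), and when scaled by total reads alone (0.137). Rnf167 overlaps its exons by 189 bases on the other strand in GENCODE vM21, and differed by -0.24 ± 0.12 in TAC saline (adjusted p = 0.202). Whether counting used strand is not given in the sources used here, so reads of both genes may be mixed. The same holds for Slc25a10 with the antisense gene Gm11788, over 228 bases, and for the uncalled Slc25a23, Slc25a25, Slc25a33, Slc25a35 and Slc25a37, whose exons also overlap a gene on the other strand.

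**Figure D2:**
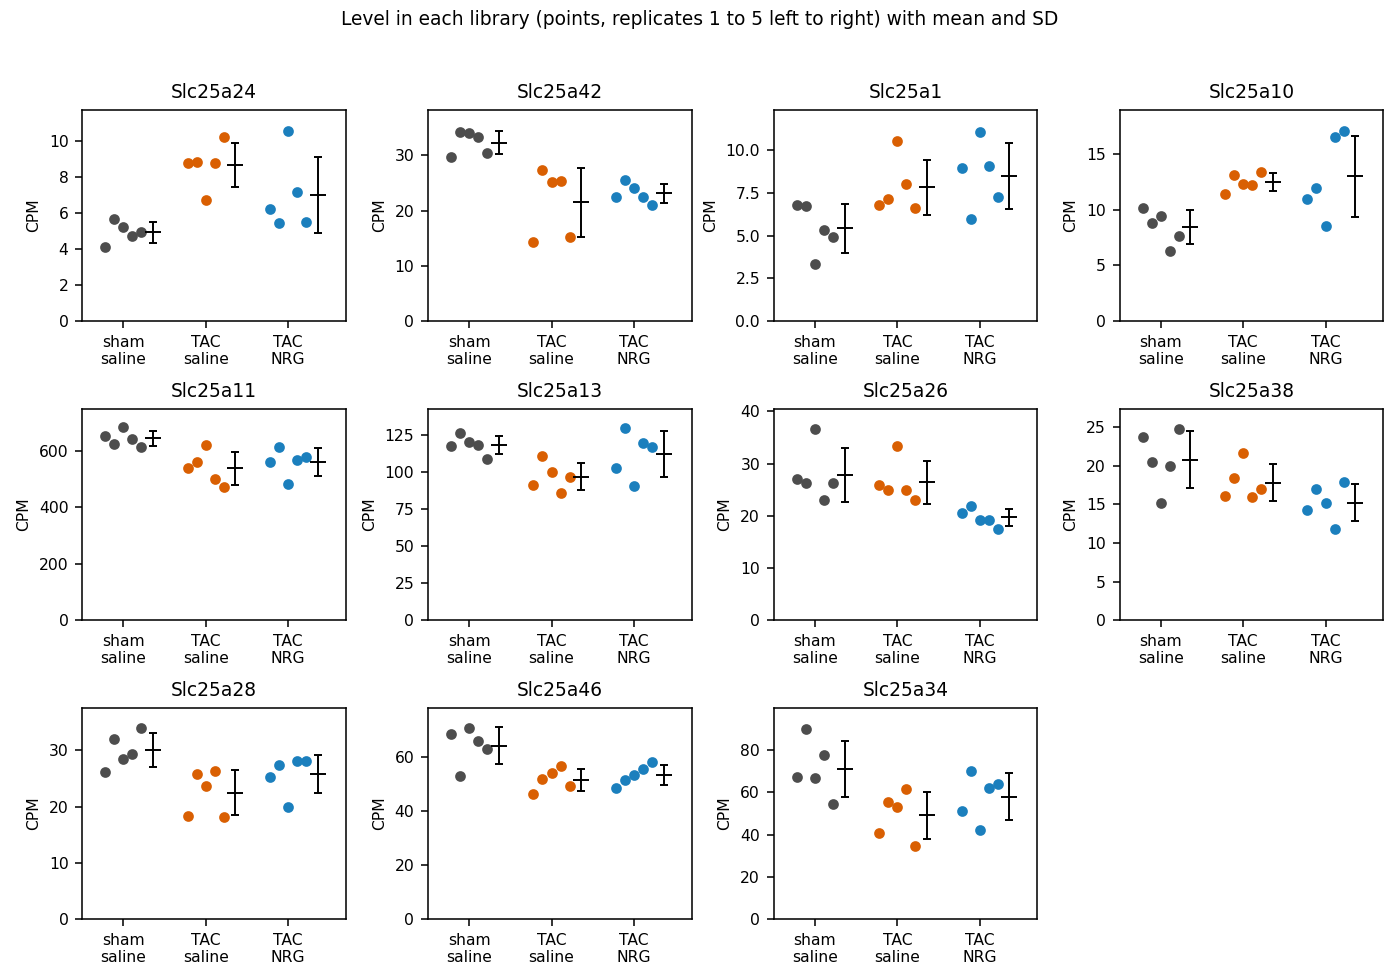
Level in CPM (y axis, from 0) of the 11 members past the threshold in any comparison, in each library of sham saline, TAC saline and TAC NRG (points, libraries 1 to 5 from left to right), with mean and SD of 5 beside them. Slc25a24 and Slc25a10 in TAC saline lie wholly above sham saline and Slc25a42 wholly below it, while the TAC NRG points overlap TAC saline in each panel but that of Slc25a26.

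Carriers of amino acids and their derivatives were called in the lower direction alone. On the authors' scaling, 8 of 10 estimates (80%) were negative in TAC saline and 7 of 10 (70%) in TAC NRG against sham saline, where 50.9% and 52.0% of all genes were. Of 10 tested members, 1 fell in TAC saline, Slc25a13, and 2 fell in TAC NRG against sham saline, Slc25a26 and Slc25a38, which is 10% and 20% where 4.24% and 7.39% of all genes fell. None rose. Slc25a13 (citrin) is an aspartate/glutamate carrier of the malate–aspartate shuttle. It stood at 118, 126, 120.4, 118 and 108 CPM in sham saline, 91.2, 110.4, 99.9, 85.9 and 96.5 CPM in TAC saline and 103, 129.7, 90.3, 119.6 and 117 CPM in TAC NRG. TAC saline 2 reached the sham range and the other 4 lay below it, while TAC NRG 2, 4 and 5 were inside or above the sham range. The fall in TAC saline was 0.29 ± 0.093 on the log2 scale (limma adjusted p = 0.0457), and TAC NRG was 0.20 ± 0.093 from TAC saline (adjusted p = 0.303) and -0.088 ± 0.093 from sham saline (adjusted p = 0.587). Slc25a13 lost the call (adjusted p in brackets) without sham saline 1 (0.0795), 2 (0.105), 3 (0.0877) or 4 (0.0761), TAC saline 1 (0.114), 4 (0.125) or 5 (0.0930) and TAC NRG 1 (0.0509), and when scaled by total reads alone (0.189). Its paralog Slc25a12 (aralar) had means of 148 ± 11.7, 140.1 ± 18.1 and 124 ± 10.3 CPM (SD, n = 5 each) and -0.25 ± 0.089 in TAC NRG against sham saline (adjusted p = 0.0542).

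Slc25a26 brings S-adenosylmethionine, the methyl donor, into the matrix. Its level was 27.0, 26.2, 36.5, 23.0 and 26.2 CPM in sham saline 1 to 5, 25.9, 24.9, 33.4, 24.9 and 23.0 CPM in TAC saline 1 to 5 and 20.6, 21.8, 19.2, 19.3 and 17.5 CPM in TAC NRG 1 to 5. The highest TAC NRG library lay below the lowest library of both saline groups. It fell by 0.48 ± 0.13 on the log2 scale in TAC NRG against sham saline (limma adjusted p = 0.0116). The difference from TAC saline was -0.42 ± 0.13 and did not pass (adjusted p = 0.106), and TAC saline was -0.069 ± 0.13 from sham saline (adjusted p = 0.808). The call held without any 1 library and was lost only without TAC NRG 4 and 5 together (adjusted p = 0.0644). Lrig1, which overlaps its exons by 144 bases on the other strand, was -0.27 ± 0.12 in TAC NRG against sham saline (adjusted p = 0.139).

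Slc25a38 carries glycine for haem synthesis. It stood at 23.7, 20.4, 15.2, 19.98 and 24.7 CPM in sham saline, 16.1, 18.4, 21.6, 15.9 and 16.9 CPM in TAC saline and 14.2, 17.0, 15.2, 11.8 and 17.9 CPM in TAC NRG. Sham saline 3 lay among the TAC NRG libraries and the other 4 sham libraries above all of them. The fall in TAC NRG against sham saline was 0.44 ± 0.15 on the log2 scale (limma adjusted p = 0.0422), and TAC saline was -0.21 ± 0.15 from sham saline (adjusted p = 0.417). Slc25a38 lost the call (adjusted p in brackets) without sham saline 1 (0.106), 2 (0.0699), 4 (0.0636) or 5 (0.117) and TAC NRG 1 (0.0778), 3 (0.0667) or 4 (0.121), without TAC NRG 4 and 5 together (0.10), and when scaled by total reads alone (0.0998).

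Slc25a39 carries glutathione, the thiol antioxidant, into the matrix and had the most reads of the class. Its level was 166, 154, 157, 184 and 154 CPM in sham saline, 145, 151, 152, 157 and 142 CPM in TAC saline and 184, 170.4, 159.6, 176 and 179.7 CPM in TAC NRG. Every TAC NRG library lay above every TAC saline library, and both overlapped sham saline. The difference of TAC NRG from TAC saline was 0.22 ± 0.072 and did not pass (limma adjusted p = 0.137, 95% interval 0.067 to 0.37). Its paralog Slc25a40 had means of 6.92 ± 0.778, 8.04 ± 3.21 and 6.72 ± 1.26 CPM (SD, n = 5 each), and is uncertain because its 3′ end is 99.7% identical to the pseudogene Gm5066. The other members of the class did not pass in any comparison. The mitochondrial glutamate carrier Slc25a22 had 31.3 ± 7.59, 25.4 ± 6.31 and 23.9 ± 2.49 CPM, and the ornithine carrier Slc25a15 7.46 ± 1.52, 8.83 ± 1.04 and 8.28 ± 1.47 CPM. For the basic amino acid carrier Slc25a29 the means were 10.04 ± 2.16, 7.40 ± 1.81 and 7.86 ± 2.02 CPM, and for Slc25a44, which takes up branched-chain amino acids, 11.0 ± 1.42, 10.6 ± 0.988 and 11.2 ± 1.75 CPM.

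Of the iron importers, mitoferrin-2 fell with constriction. Slc25a28 encodes mitoferrin-2, which brings iron into the matrix for haem and iron-sulfur clusters. Its level was 26.1, 32.0, 28.6, 29.4 and 34.0 CPM in sham saline, 18.4, 25.9, 23.7, 26.3 and 18.2 CPM in TAC saline and 25.3, 27.4, 20, 28.1 and 28.1 CPM in TAC NRG. TAC saline 4 lay just above the lowest sham library and the other 4 below it, with TAC saline 1 and 5 lowest. It fell by 0.43 ± 0.13 on the log2 scale in TAC saline (limma adjusted p = 0.0369), and TAC NRG was -0.23 ± 0.13 from sham saline (adjusted p = 0.271) and 0.20 ± 0.13 from TAC saline (adjusted p = 0.480). Slc25a28 lost the call (adjusted p in brackets) without sham saline 2 (0.0806), 3 (0.0553), 4 (0.0584) or 5 (0.0951) and TAC saline 1 (0.119) or 5 (0.128), and when scaled by total reads alone (0.104). Mitoferrin-1, Slc25a37, known from red cell precursors, had means of 12.5 ± 1.98, 11.4 ± 2.21 and 14.5 ± 1.01 CPM (SD, n = 5 each). Its difference between the TAC groups was 0.37 ± 0.15 (adjusted p = 0.249), and the 5 red cell markers summed to 905 to 2222 CPM in sham saline, 980.3 to 1474 CPM in TAC saline and 1703 to 3488 CPM in TAC NRG. The part of red cells in it was not tested. Its 3′ end is identical over 300 bases to Gm16867, so its reads are uncertain.

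Slc25a46, an outer membrane protein that acts in mitochondrial fission and lipid supply rather than in transport, fell as well. It stood at 68.2, 52.9, 70.7, 65.8 and 62.7 CPM in sham saline, 46.1, 51.6, 53.9, 56.5 and 49.2 CPM in TAC saline and 48.5, 51.2, 53.1, 55.5 and 58.1 CPM in TAC NRG. Sham saline 2 lay within the range of both TAC groups and the other sham libraries above all TAC libraries. The fall in TAC saline was 0.31 ± 0.094 on the log2 scale (limma adjusted p = 0.0337), and TAC NRG was -0.26 ± 0.094 from sham saline (adjusted p = 0.0591). Slc25a46 lost the call (adjusted p in brackets) without sham saline 1 (0.0830), 3 (0.0884), 4 (0.0667) or 5 (0.0554), and TAC saline 1 (0.104), 2 (0.0507) or 5 (0.0881), and when scaled by total reads alone (0.196). B930094E09Rik overlaps its exons by 383 bases on the other strand.

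Slc25a34 has no settled substrate and had the most reads of the 4 tested members in that position. Its level was 67.0, 89.6, 66.5, 77.3 and 54.3 CPM in sham saline, 40.6, 55.4, 53.2, 61.4 and 34.5 CPM in TAC saline and 51.0, 70.0, 42.1, 62.0 and 63.9 CPM in TAC NRG. Sham saline 5 lay among the TAC saline libraries, and TAC saline 1 and 5 were the lowest of all 15. It fell by 0.55 ± 0.15 on the log2 scale in TAC saline (limma adjusted p = 0.0231), and TAC NRG was 0.25 ± 0.15 from TAC saline (adjusted p = 0.461) and -0.30 ± 0.15 from sham saline (adjusted p = 0.202). Slc25a34 lost the call (adjusted p in brackets) without sham saline 2 (0.0751) or 4 (0.0562), TAC saline 1 (0.0755) or 5 (0.0949), and when scaled by total reads alone (0.0533). The others did not pass in any comparison. Group means in sham saline, TAC saline and TAC NRG were 4.92 ± 1.01, 5.37 ± 1.54 and 5.27 ± 1.85 CPM for Slc25a35, 2.89 ± 1.00, 4.57 ± 1.02 and 3.50 ± 1.21 CPM for Slc25a45 and 3.67 ± 1.18, 4.28 ± 0.850 and 2.50 ± 0.860 CPM for Slc25a47 (SD, n = 5 each).

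The uncoupling-like carriers did not pass either. Slc25a30, related to the uncoupling proteins, stood at 8.78, 8.04, 7.50, 8.09 and 7.03 CPM in sham saline, 9.98, 8.62, 6.41, 7.29 and 8.78 CPM in TAC saline and 5.94, 9.48, 7.51, 6.27 and 9.06 CPM in TAC NRG. The groups overlapped throughout, and the 95% interval of TAC saline against sham saline was -0.33 to 0.43. Slc25a27, best known from neurons, had means of 4.93 ± 1.63, 4.51 ± 2.30 and 3.50 ± 1.79 CPM (SD, n = 5 each), with 3 to 29 reads a library.

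**Figure D3:**
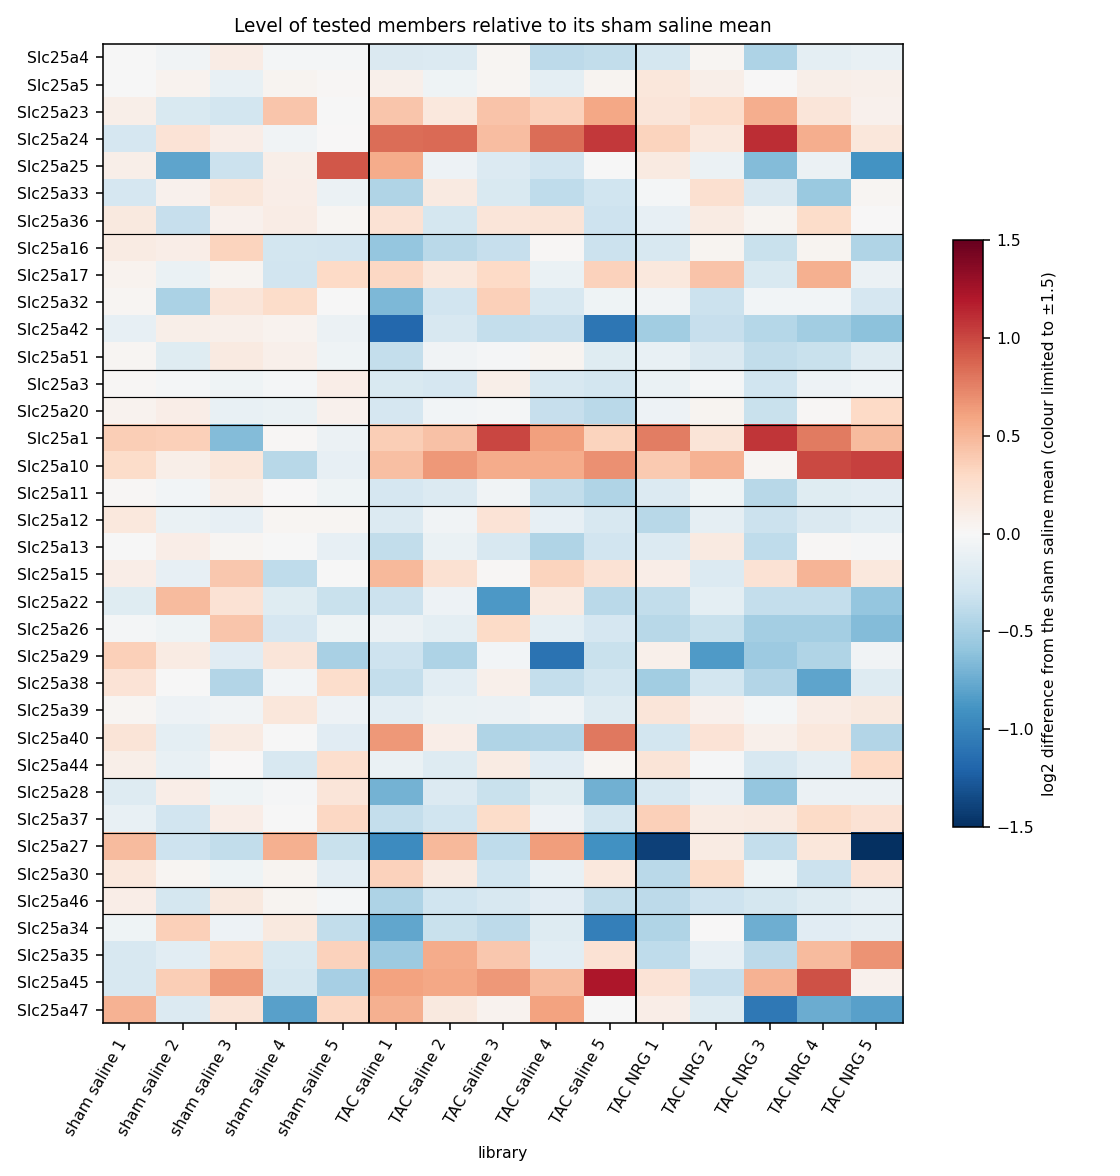
Level of 36 of the 37 tested members (rows, in substrate order) in each of the 15 libraries (columns), as the log2 difference from that member's sham saline mean, with the colour limited to ±1.5. Slc25a42, Slc25a28 and Slc25a34 have their deepest blue in TAC saline 1 and 5, and Slc25a24 is red in all 5 TAC saline libraries.

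Libraries of 1 group differed among themselves in the members that fell. TAC saline 1 and 5 held the lowest levels of Slc25a42, Slc25a28 and Slc25a34, at 14.3 and 15.3, 18.4 and 18.2, and 40.6 and 34.5 CPM. Mitochondrially encoded genes took 26.6% and 26.0% of reads in these libraries and 26.9% to 29.6% in the other 3 of the group. TAC saline 4, at 26.9%, nonetheless held the highest Slc25a28 (26.3 CPM) and Slc25a34 (61.4 CPM) of the group, and Slc25a42 at 25.3 CPM. TAC saline 3 had the highest Slc25a4, Slc25a3 and Slc25a11 of its group and the highest mitochondrial share, 29.6%. In TAC NRG, library 2 was highest and library 3 lowest for Slc25a4, Slc25a3 and Slc25a11, with mitochondrial shares of 29.0% and 24.4%. The order did not hold for TAC NRG 4 and 5, which had the lowest shares, 24.2% and 23.7%, but lay above TAC NRG 1 and 3 for these 3 genes, with Slc25a4 at 7672 and 7833 CPM. The part of the mitochondrial share in the members' levels was not tested.

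Genes that work beside the carriers were counted in lists of known partners, and none of these lists had a call between TAC NRG and TAC saline. Their counts stand beside 6.47% higher and 4.24% lower of all genes in TAC saline, and 8.74% and 7.39% in TAC NRG, against sham saline. Of 10 tested carriers that bear other symbols, 1 rose in TAC saline, Sfxn3, and 1 fell, Mpc2, and in TAC NRG against sham saline Sfxn3 and Ucp2 rose and Mpc2 fell. Sfxn3, a sideroflexin, went from 6.81 ± 1.505 CPM in sham saline to 10.1 ± 1.46 in TAC saline and 13.1 ± 2.81 in TAC NRG (limma adjusted p = 0.0451 and 0.000969 against sham saline). Mpc2, a subunit of the pyruvate carrier, fell by 0.28 ± 0.08 and 0.27 ± 0.08 on the log2 scale. Ucp2, a member of the uncoupling protein family, rose by 0.88 ± 0.19 in TAC NRG against sham saline. Its difference of TAC saline from sham saline, 0.55 ± 0.19, fell just outside the threshold (limma adjusted p = 0.0598). That of TAC NRG from TAC saline, 0.33 ± 0.19, did not pass (limma adjusted p = 0.41). Of 13 genes that import carriers into the inner membrane, 0 were called in TAC saline and 1, the receptor Tomm20, rose in TAC NRG against sham saline (0.26 ± 0.084). Of 9 genes of outer membrane pores and calcium uptake, 0 and 1 were called, the latter the voltage-dependent channel Vdac2 (0.27 ± 0.07). Of 8 genes of energy transfer, the creatine kinase Ckb rose (0.39 ± 0.11) and the adenylate kinase Ak4 fell (0.48 ± 0.15) in TAC saline, while Ckb rose (0.46 ± 0.11) and Ckm, the muscle creatine kinase, fell (0.36 ± 0.11) in TAC NRG against sham saline.

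Partners of the carnitine carrier fell in part. Of 4 tested genes of the carnitine shuttle, Cpt2 and Crat fell in TAC saline, by 0.33 ± 0.095 and 0.25 ± 0.079 on the log2 scale, and Cpt2, which reforms acyl-CoA in the matrix beside Slc25a20, fell in TAC NRG by 0.39 ± 0.095. Cpt1b and Cpt1c of the same list did not pass the filter and were not tested. The 4 enzymes of the malate–aspartate shuttle that work with Slc25a11, Slc25a12 and Slc25a13 had 0 calls in each comparison. Of 12 genes of iron uptake and use, 2 rose and 1 fell in TAC saline, and 2 rose and 2 fell in TAC NRG against sham saline. Tfrc, the transferrin receptor, rose by 0.94 ± 0.24 and 1.18 ± 0.24, and its TAC saline call was lost with a robust spread (limma adjusted p = 0.0806). Slc25a28 had the opposite sign in both TAC groups but was called in TAC saline alone. Slc25a37, the other mitoferrin, was not called, at -0.145 ± 0.15 in TAC saline and 0.22 ± 0.15 in TAC NRG against sham saline. Abcb10, a transporter of the inner mitochondrial membrane, fell by 0.35 ± 0.11 in TAC NRG. Of 9 genes of branched-chain and glycine metabolism, 1 rose and 4 fell in each TAC group against sham saline. Bckdhb and Dbt, subunits of the branched-chain ketoacid dehydrogenase, fell by 0.55 ± 0.13 and 0.55 ± 0.15 in TAC saline and by 0.42 ± 0.13 and 0.54 ± 0.15 in TAC NRG. Mthfd2, of folate metabolism, rose by 1.35 ± 0.40 and 1.23 ± 0.40. Slc25a44, which supplies the branched-chain enzymes, differed from sham saline by -0.059 ± 0.15 and 0.023 ± 0.15 and did not pass. With each single library left out, calls held for Bckdhb in TAC saline and for Sfxn3, Ucp2, Vdac2, Ckb, Cpt2, Tfrc and Dbt in TAC NRG, and each of the other partner calls named here was lost in 1 to 10 of 15 such fits. Without TAC NRG 4 and 5 together, the TAC NRG calls of Vdac2, Tomm20, Abcb10 and Mthfd2 were lost, at an adjusted p of 0.0818, 0.228, 0.176 and 0.102. When scaled by total reads alone, the calls of Mpc2, Ak4, Cpt2, Crat and Dbt in TAC saline and of Mpc2, Ckm, Abcb10 and Bckdhb in TAC NRG were lost.

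Promoters were read from RefSeq on GRCm38.p6 for 32 of the 41 members, with 41 windows of 300 bases. The GC box GGGCGG was present on either strand in 87.8% of the members' windows, 63.4% of those of tested genes and 35.7% of all promoters. The E-box CACGTG was in 8 windows of 7 members (19.5%), against 10.2% and 7.15%. Members with it were Slc25a1, Slc25a13, Slc25a14, Slc25a15, Slc25a31, Slc25a33 and Slc25a36. Of these, Slc25a1 rose in TAC NRG and Slc25a13 fell in TAC saline, each against sham saline. Slc25a14 and Slc25a31 were untested, and Slc25a15, Slc25a33 and Slc25a36 were not called in any comparison. Of all tested members, 5.41% rose in TAC NRG and 16.2% fell in TAC saline against sham saline. The NRF1 letters GCGCANGCG were in 2 windows (4.88%; 13.4% of tested genes, 6.25% of all), those of Slc25a3 and Slc25a31, and the YY1 letters AANATGGCG in 1 (2.44%; 5.21% and 2.38%), that of Slc25a3. The ERR letters TNAAGGTCA were in 0 of the 41 windows (0.723% and 1.28%). These matches describe letters in the windows and were not tested as binding sites.

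**Figure D4:**
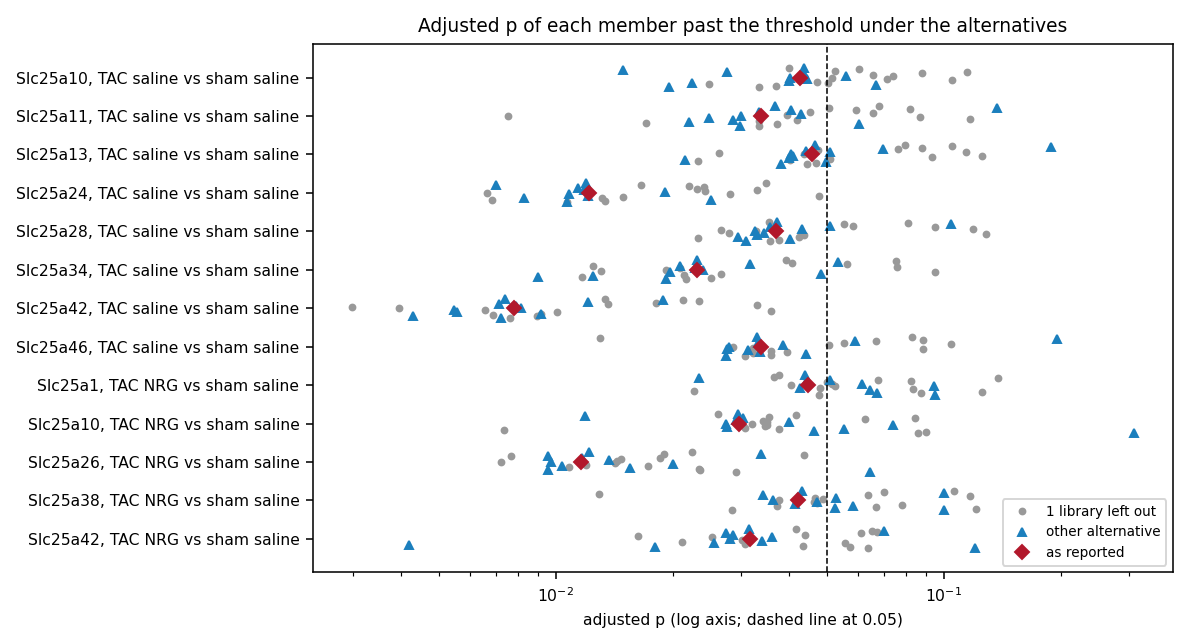
Adjusted p (x axis, log scale, dashed line at 0.05) of each member past the threshold as reported (red diamonds), in fits that left out 1 library (grey points) and under other settings (blue triangles). All points of Slc25a24 and Slc25a42 in TAC saline against sham saline lie left of the line, while each of the other rows has at least 1 point right of it.

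Across scaling, filter, spread, test, groups fitted, replicate numbers and single libraries left out, Slc25a24 and Slc25a42 kept their call between TAC saline and sham saline in every fit that held them. Their adjusted p ran from 0.00666 to 0.0476 over 25 fits for Slc25a24 and from 0.00299 to 0.0359 over 26 fits for Slc25a42 (limma). Settings not yet named ended further calls, with the adjusted p in brackets. With total reads counted without mitochondrially encoded genes, those of Slc25a13 (0.0697), Slc25a28 (0.0508) and Slc25a46 (0.0590) in TAC saline and Slc25a1 (0.0508) in TAC NRG were lost. With no filter on low values, those of Slc25a10 (0.0560) and Slc25a13 (0.0508) in TAC saline and Slc25a1 (0.0616) and Slc25a38 (0.0527) in TAC NRG were lost. With only the compared groups fitted, the TAC NRG calls of Slc25a1 (0.0645), Slc25a10 (0.0553) and Slc25a38 (0.0582) were lost, and with voom weights also that of Slc25a10 (0.0741). With the replicate number as a block, the TAC saline calls of Slc25a10 (0.0668) and Slc25a11 (0.0605) were lost. The same setting ended the TAC NRG calls of Slc25a1 (0.0673) and Slc25a38 (0.0524). At a stricter threshold of 0.01, Slc25a42 was the only member called in any comparison.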

How the data were processed

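Left ventricular RNA, extracted with Tri Reagent per the labels' protocols, was made into BRB-seq libraries, 15 in all, with 5 each in sham saline, TAC saline and TAC NRG. The labels put every library in batch 1. Genome build GRCm39 is named in the submitters' processing notes, but the aligner, the read counter and whether strand was used were not given in the sources used here. Each deposited table holds log2 values; their spacing shows that the authors added 0.5 to the reads and multiplied by 1 factor for each library. Undoing the factor gave whole reads within 0.05 for 98.9% to 99.5% of values per library, and for 100% of those under 1000 reads. For CPM, 2 was raised to each deposited value and the result divided by 1000, so a gene with 0 reads holds the 0.5 offset.

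Libraries held 2.02 to 5.62 M reads. Within groups, libraries differed by a chi-square of 2.16 to 10.9 per degree of freedom, so none was counted as a duplicate. Genes with at least 2.95 reads per M (10 reads in the median library) in 5 libraries and 15 reads in total were kept, 11018 of 15258. Linear models with moderated, mean-dependent spread (limma 3.58.1, R 4.3.3) were fitted to the log2 values of all 15 libraries, with two-sided p-values adjusted by Benjamini-Hochberg across the 11018 genes and called under 0.05. The median SE of a log2 difference was 0.16. The script was tested on simulated data. "Rose" and "fell" mean past the threshold.

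The Slc25a members, substrate classes, partner and marker lists were chosen with earlier results of these data known. Named with every library's value were members past the threshold in any comparison and the member with the highest mean in each of 10 classes. Of each partner list, at most 3 called genes with the largest differences were named. For 1 tested member and 1 partner gene, values are not reported here, and both stay in the counts. Genes outside that rule are marked as chosen after their values were seen.

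Alternatives changed the scaling (median of ratios, total reads with or without mitochondrially encoded genes), pseudocount, filter, test (voom weights on recovered reads), spread, groups fitted, replicate block, threshold and libraries. Promoters came from RefSeq on GRCm38.p6, and overlaps and 3′ end identities (at least 95% over 100 bases within the last 300) from GENCODE vM21 on GRCm38. No coordinates were converted between builds. Tables and plots used matplotlib 3.10.9, scipy 1.17.1, numpy 2.4.6 and pandas 2.3.3 under Python 3.11.15.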

Additional observations from a re-analysis of the deposited data

Results flagged for a closer look

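In groups of 5 libraries, a library was singled out when its gap to the nearest other exceeded 0.71 of the group's range, both taken on the log2 scale. Of 51 groups tested over the 17 members named in full, 2 were singled out, and chance gives about 1 in 20. Both concerned Slc25a3, the phosphate carrier. TAC saline 3 stood at 4183 CPM, above the other 4 libraries at 3238 to 3347 CPM, a gap of 0.87 of the range. TAC NRG 3 stood at 3183 CPM, below the others at 3667 to 3857 CPM, a gap of 0.737 of the range. Slc25a4 was likewise highest in TAC saline 3 and lowest in TAC NRG 3 of their groups, at 8668 and 6138 CPM, and mitochondrially encoded genes took 29.6% and 24.4% of reads in these libraries. TAC NRG 4 and 5 had lower shares, 24.2% and 23.7%, with Slc25a3 at 3712 and 3816 CPM. Their part in the Slc25a3 levels was not tested.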

How the results depend on the processing

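Between TAC saline and sham saline, the 8 members past the threshold became 4 when scaled by total reads alone and 1 at a threshold of 0.01, and 2 to 10 with 1 library left out; the members' median of -0.12 became -0.011 when scaled by total reads alone. The 1180 genes called in all became 708 without TAC saline 1, 636 without TAC saline 5 and 505 at a threshold of 0.01. Between TAC NRG and TAC saline the members stayed at 0, while the 143 genes in all became 77 with only the compared groups fitted, 39 without TAC NRG 4 and 5, 353 and 39 at thresholds of 0.1 and 0.01, and 58 to 229 with 1 library left out. Between TAC NRG and sham saline the 5 members became 3 with total reads alone, with no filter and with only the compared groups fitted, 1 without TAC NRG 4 and 5, 9 and 0 at thresholds of 0.1 and 0.01, and 1 to 6 with 1 library left out; their median of -0.11 became -0.016 with total reads alone, and the 1777 genes in all became 849 at a threshold of 0.01. With the replicate number as a replicate block, the count was 6 of 37 members in TAC saline against sham saline, 0 between the TAC groups and 3 in TAC NRG against sham saline. Replicate numbers did not pair the samples, since deviations of same-numbered libraries correlated at -0.25 to 0.080 and not every library correlated best with its own number. The causes of these shifts were not tested. No named member reversed its direction past the threshold. Members with few reads, such as Slc25a27 and Slc25a47, had wide intervals, and the part of depth in this was not tested. Slc25a14, Slc25a18, Slc25a31 and Slc25a53 were too low to test.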
